A study of Mus musculus with 12 samples.

Results

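The Runx family of transcription factors was followed in lung group-2 innate lymphoid cells (ILC2s) that did or did not carry tdTomato. Its members were taken as the rows of the deposited gene tables with the symbol *Runx1*, *Runx2* or *Runx3*, and all 3 were found among the 3439 genes of the tables. The mice had the genotype TIGIT-Cre-ERT2:Rosa26-LSL-tdTomato, so that under tamoxifen a cell expressing TIGIT, and its progeny, carries the red fluorescent protein tdTomato. All animals, those giving the tdTomato- cells included, received nasal papain, a protease allergen, together with tamoxifen. The labels list 4 RNA-seq libraries of tdTomato- ILC2s and 4 of tdTomato+ ILC2s, and no age is given in them. Cells came from lungs of males and were sorted as CD45+ Lin- CD127+ CD25+ ST2+, so the genes of these surface proteins bear on the sort itself. The tdTomato mark stays in a cell after *Tigit* expression, so alone it does not show TIGIT at the time of the sort. The paper reports that tdTomato+ ILC2s kept TIGIT both under papain and once papain had been stopped.

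Runx proteins bind DNA through the Runt domain, which they share, and do so as a dimer with CBFβ, a partner that does not itself contact DNA. They activate or silence genes depending on the cofactors they recruit. *Runx1* is needed for the emergence of blood stem cells and for early lymphocyte development, *Runx2* is the master regulator of bone formation, and *Runx3* acts in cytotoxic T cells, in several innate lymphoid lineages and in sensory neurons. The 3 genes are known for transcription from a distal and a proximal promoter, which gives proteins with different N termini.

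The upstream starts of the 3 paralogs share a run of bases that holds 2 Runx motifs, and it is shown here because it is a sequence that all members have in common and that was not used to choose them. RefSeq promoter windows of 300 bases, from 250 before to 50 after an annotated start, were found for all 3 genes. Comparing the windows of the most upstream start of each gene, the longest run common to all 3 was 18 bases, given in capitals within 30 bases of the gene's own strand (GRCm38.p6).
Runx1, chr16:92826025-92826054, minus strand: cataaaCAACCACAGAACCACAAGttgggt
Runx2, chr17:44814583-44814612, minus strand: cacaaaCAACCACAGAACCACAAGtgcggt
Runx3, chr4:135120503-135120532, plus strand: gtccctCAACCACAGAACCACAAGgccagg

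The motif searched was TGTGGT, on both strands, and the capitals hold it as ACCACA, its reverse complement, at starts 8 bases apart. The run lay at bases 27 to 44 after the start of *Runx1* and at bases 22 to 39 after that of *Runx2*. In *Runx3* it lay before the annotated start, from base -136 to base -119. Between *Runx1* and *Runx2* the common run was longer, at 22 bases, whereas *Runx3* shared no more than the 18 bases with either. Of 32851 promoter windows in the table, 4 held the 18 bases, and these were the 3 Runx windows and that of *Gm16225*, a long non-coding RNA gene whose window overlaps that of *Runx3* on the other strand. A pair of TGTGGT matches on 1 strand at this spacing was in 7 of the 32851 windows (0.0213%), those 4 included. The spacing was taken from the shared run, so the 3 Runx windows hold it by construction and the share is no independent measure of rarity. These are matches of letters, and no binding was measured.

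**Figure D1:**
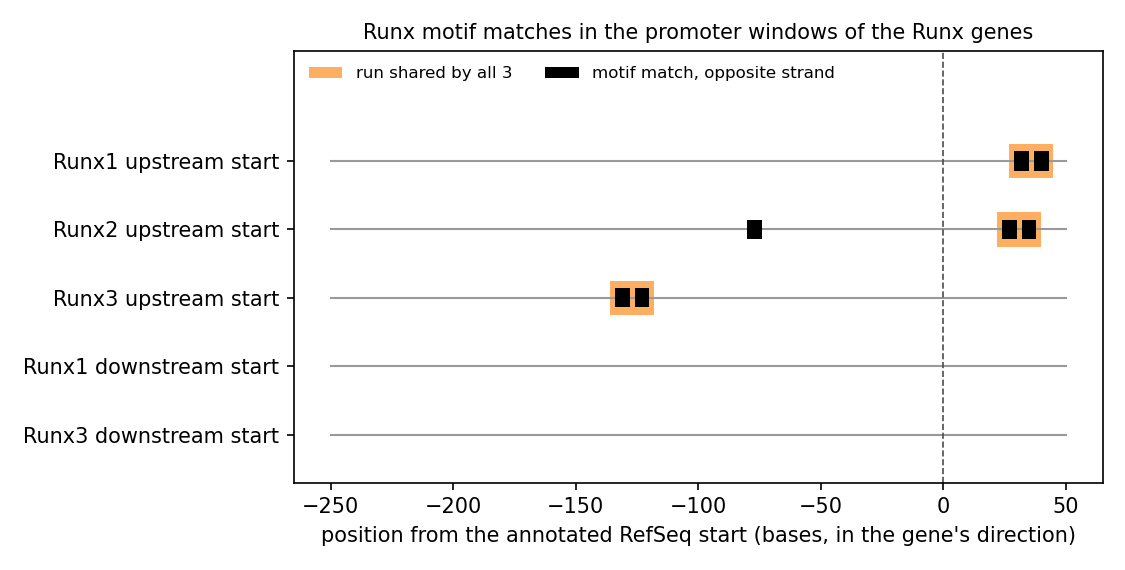
Positions of TGTGGT matches (black) and of the 18-base run shared by all 3 upstream windows (orange) along the promoter windows of the Runx genes, in bases from the annotated start (dashed line) in the direction of the gene. The run lies after the start in *Runx1* and *Runx2* and before it in *Runx3*, and the windows of the downstream starts of *Runx1* and *Runx3* hold no match.

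The downstream starts differed from the upstream ones in base composition. The table gave *Runx1* a second start 128745 bases downstream of the first, and *Runx3* a second start 31900 bases downstream. The upstream windows had a GC content of 45.0% in *Runx1*, 45.3% in *Runx2* and 63.7% in *Runx3*, with 2, 2 and 8 CpG dinucleotides. The downstream windows had a GC content of 69.0% in *Runx1* and 77.3% in *Runx3*, with 35 and 45 CpG dinucleotides. Neither downstream window held a TGTGGT or a TGNGGT. In the GENCODE M21 annotation, 2 of 5 protein-coding transcripts of *Runx1* started within 1000 bases of the upstream start, as did 4 of 9 of *Runx2* and 1 of 2 of *Runx3*. The deposited values are per gene, so the part of each start in the level of a gene is not known.

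For the comparison of tdTomato+ with tdTomato- ILC2s, the record deposited is a table of genes lower and a table of genes higher in tdTomato+ ILC2s. *Runx1*, *Runx2* and *Runx3* were all in the table of lower genes, and 0 of the 3 were in the table of higher genes. As background, 13.2% of the 21951 annotated protein-coding genes were in the table of lower genes and 2.31% in that of higher genes. This background counts every annotated gene, also those whose level is too low to be listed. It is therefore not matched in expression to the gene lists below. The fold changes and p-values beside these genes come from the comparison that made the tables and are not given here, so that the listing is a deposited record and no test stands behind it in this text. No value of a single library is in the tables, and neither the spread between libraries nor their depth is known. In sorted bulk cells, fewer cells that use a gene and less of its RNA per cell cannot be told apart. Lower was the more common direction, with 2906 genes in the table of lower genes and 533 in that of higher genes. A broad reduction of protein-coding transcripts in tdTomato+ ILC2s is reported in the paper, with non-coding RNA such as that of major satellites prevailing. Its methods describe small numbers of sorted cells and a low-input protocol. Whether the Runx listing goes beyond this broad reduction was not tested.

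The level that the tables give is the authors' average log2 CPM, 1 value per gene over the libraries of both populations, where CPM is counts scaled to the size of the library. The average log2 CPM was 7.19 for *Runx1* (ENSMUSG00000022952). It was 6.73 for *Runx3* (ENSMUSG00000070691). It was 6.42 for *Runx2* (ENSMUSG00000039153). The order *Runx1*, *Runx3*, *Runx2* thus spanned 0.77 on the log2 scale, or 146, 106 and 85.6 CPM, and without replicate values it cannot be said which neighbours in it differ beyond their spread.

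Among the 2906 genes of the table of lower genes, whose median average log2 CPM was 6.39 (quartiles 5.80 and 7.11), *Runx2* stood near the middle and *Runx1* above the upper quartile. The rank from the top was 666 for *Runx1*, 1085 for *Runx3* and 1425 for *Runx2*, with 77.1%, 62.7% and 51.0% of the genes below them. The genes next to *Runx1* in average log2 CPM were *Mib1* and *Ints6* above and *Ppp6r3* and *Arl5a* below. Next to *Runx3* stood *Il17ra* and *Usf3* above and *Arf1* and *Traf1* below, and next to *Runx2* stood *Cmtm6* and *Mdh2* above and *Trim8* and *Tbc1d1* below. All 3 genes were well above 5.00, the lowest average log2 CPM in that table.

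**Figure D2:**
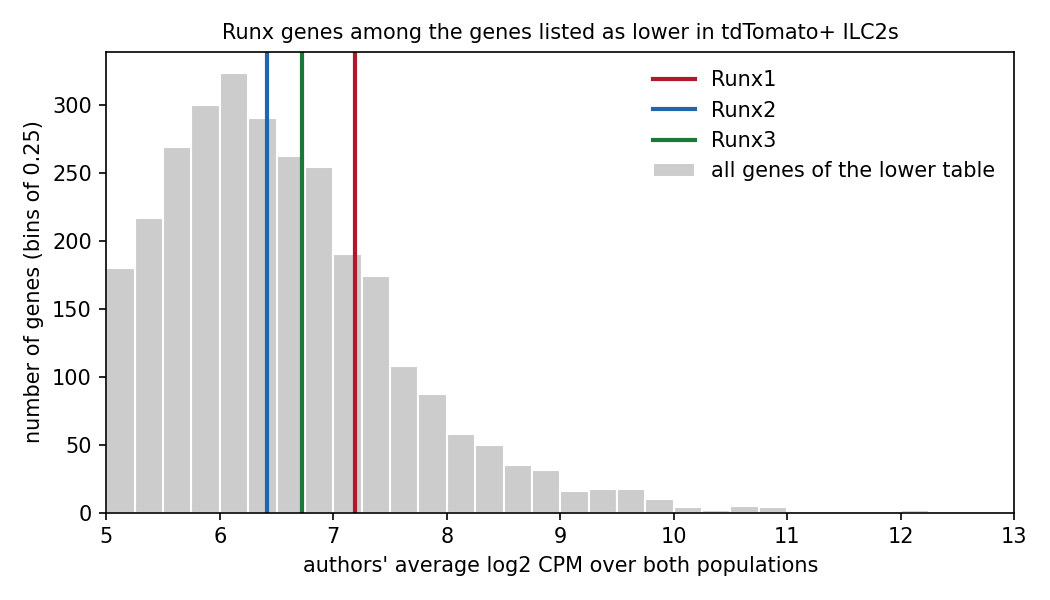
Number of genes of the table of lower genes (grey, bins of 0.25) by the authors' average log2 CPM over both populations, with the 3 Runx genes as vertical lines. *Runx2* (6.42) lies by the median of 6.39, *Runx3* (6.73) above it and *Runx1* (7.19) above the upper quartile of 7.11.

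A longer transcript gives more fragments, so levels of different genes were also compared per length, and the length used decided the order of the paralogs. The column is headed as CPM, but the names of the tables carry the unit TPM, which is already scaled by length. If the values were scaled in that way, division by length would correct for it a further time and the order without length scaling would be the one to read. The tables do not settle this. The union of all annotated exons covers 12025 bases in *Runx1*, 8837 in *Runx2* and 5003 in *Runx3*. Per kb of these exons the average level was 21.2 CPM for *Runx3*, 12.1 CPM for *Runx1* and 9.69 CPM for *Runx2*. On this scale *Runx3* had the highest level of the family, and its level was 2.18 times that of *Runx2*, while *Runx1* was at 0.574 of *Runx3*. Per kb of the longest protein-coding transcript, *Runx3* (27.3 CPM) and *Runx1* (24.9 CPM) were nearly level, with *Runx2* at 13.2 CPM. Per kb of coding length, *Runx1* (105 CPM) was again above *Runx3* (83.4 CPM), and *Runx2* had 47.9 CPM. *Runx2* was lowest on every one of these scales and without length scaling, whereas the order of *Runx1* and *Runx3* turned with the length used.

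**Figure D3:**
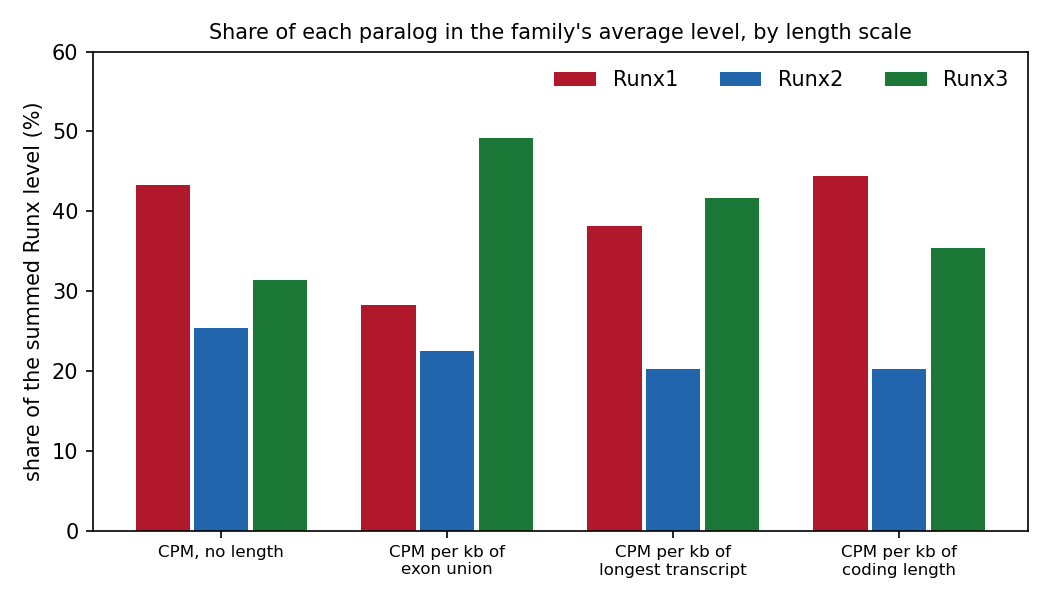
Share of each Runx gene in the summed average level of the 3 genes (%), for CPM without length scaling and for CPM per kb of 3 lengths, with 1 value per gene and no replicate error available. *Runx2* holds 20.2% to 25.4% on all 4 scales, while *Runx3* holds 49.2% per kb of all exons and 31.4% without length scaling.

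Per kb of exons, 32.6% of the genes of the table of lower genes were below *Runx1*, 15.5% below *Runx2* and 67.6% below *Runx3*, where the median gene had 15.4 CPM per kb. The position of *Runx3* was hence above the median on both scales, and that of *Runx1* fell from above to below it.

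The partner gene *Cbfb*, which encodes CBFβ, was also in the table of lower genes, with an average log2 CPM of 6.27. *Cbfb* had 22.1 CPM per kb of exons, against 43.0 CPM per kb for the 3 Runx genes together. The summed Runx level was 1.94 times that of *Cbfb* per kb of exons, 1.72 times per kb of coding length and 4.39 times in CPM without length scaling. These are transcript levels averaged over both populations, and protein was not measured.

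Of 21 genes for cofactors of Runx proteins, 11 were in the table of lower genes and 0 in that of higher genes, beside the 13.2% of annotated protein-coding genes. Their average log2 CPM had a median of 7.52, against 6.39 over that whole table. Among the corepressors was *Tle3* (7.23), of the Groucho family that binds the C terminus of Runx proteins. *Tle5* (7.52) is a short gene of the same family, with a coding length of 591 bases against 2349 in *Tle3*. *Sin3a* (7.06), *Hdac1* (6.40) and *Ncor1* (9.60) are corepressor genes of histone deacetylase complexes. Among the coactivators were the acetyltransferase genes *Ep300* (7.88), *Crebbp* (7.85) and *Kat6a* (7.91). *Smad3* (6.57) encodes a mediator of TGF-β signals and *Ets1* (9.27) a factor that binds DNA cooperatively with RUNX1. The values in brackets are average log2 CPM. The remaining 10 were in neither table, namely *Tle1*, *Tle2*, *Tle4*, *Hdac3*, *Prmt1*, *Suv39h1*, *Hipk2*, *Yap1*, *Wwtr1* and *Men1*, and their levels and directions are not known from the tables.

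Of 24 genes known as regulated by Runx proteins in lymphoid or myeloid cells, 8 (33.3%) were in the table of lower genes and 0 in that of higher genes, where annotated protein-coding genes had shares of 13.2% and 2.31%. These were *Il7r* (average log2 CPM 8.96), the IL-7 receptor chain CD127, *Bcl11b* (7.93) and *Tcf7* (5.68), factors of T cell and ILC2 development, and *Zbtb7b* (5.28), the factor of the CD4 T cell lineage. They also included the integrin genes *Itgal* (7.89) and *Itgae* (6.74), the IL-2 receptor chain *Il2rb* (6.77) and the cytokine *Csf2* (7.01). *Il7r* encodes a protein used in the sort. In neither table were *Cd4*, *Cd8a*, *Il4*, *Ifng*, *Il2*, *Il3*, *Prf1*, *Gzmb*, *Eomes*, *Tbx21*, *Spi1*, *Csf1r*, *Ccr7*, *Foxp3*, *Rag1* and *Mpo*, many of which are genes of cytotoxic, helper T or myeloid cells.

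Of 13 transcription factor genes of ILC2s, 12 (92.3%) were in the table of lower genes, beside 13.2% of annotated protein-coding genes, 0 were in that of higher genes (background 2.31%), and *Zbtb16* was in neither. The background was not matched to these genes in expression. *Gata3* (average log2 CPM 8.79), *Rora* (8.60) and *Id2* (8.53), which ILC2s require, and *Ikzf1* (8.24) and *Nfkb1* (8.99) were above all 3 Runx genes. *Maf* (6.65) lay between *Runx3* and *Runx2*, and *Tox* (5.76), *Nfil3* (5.31) and *Gfi1* (5.11) lay below them. Per kb of exons, *Gata3* had 111 CPM and *Rora* 29.8 CPM, both above *Runx3*, while *Maf* with 12.2 CPM was near *Runx1*. On that scale the order of the lower factors turned in part. *Nfil3* (19.6 CPM) and *Tcf7* (19.5 CPM) were above *Runx1* and *Runx2*, *Gfi1* (10.8 CPM) was above *Runx2* only, and *Tox* (7.12 CPM) stayed below all 3.

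**Figure D4:**
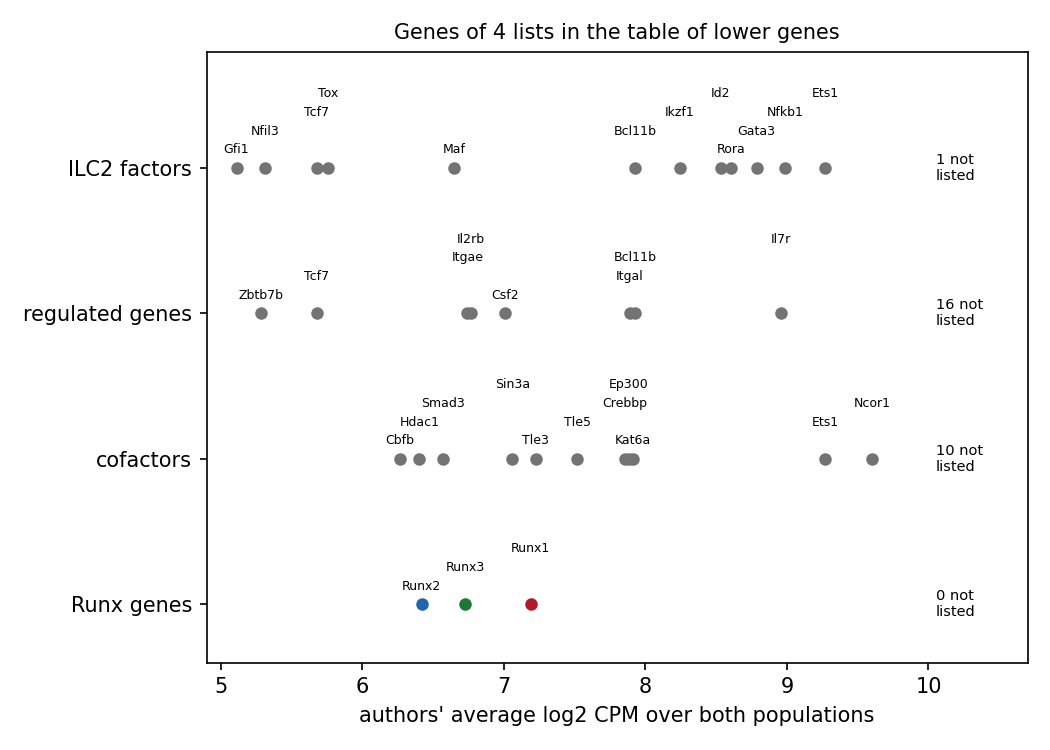
The authors' average log2 CPM over both populations for the genes of 4 lists that are in the table of lower genes, 1 point per gene, with the number of genes in neither table at the right. The Runx genes lie between 6.42 and 7.19, at the lower end of the listed cofactors (6.27 to 9.60).

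Markers of cell types were looked up among the genes called lower or higher, so a listing reflects that call and does not show identity. Among the ILC2 markers, *Ptprc*, *Il7r*, *Il2ra* and *Il1rl1* encode the sort proteins CD45, CD127, CD25 and ST2, and Lin+ cells were sorted out. Of 13 ILC2 markers, 13 were in the table of lower genes, with an average log2 CPM from 6.27 (*Il13*) to 9.98 (*Il1rl1*), the gene of ST2. Of 7 T cell markers, *Cd3g* (6.12) was in the table of lower genes and the other 6 were in neither, and of 4 B cell, 3 NK cell, 5 macrophage and 3 epithelium markers 0 were in either. The background was 13.2% of annotated protein-coding genes for the table of lower genes and 2.31% for that of higher genes. A gene under an average log2 CPM of 5 is not in the tables, nor is a gene of any level that was not called different. These markers were thus not shown to be absent, and the part of other cells in the Runx levels was not tested. The paper reports lineage markers as low and without a statistical difference between its samples.

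The gene bodies differed in size and in what overlaps them. In GRCm38, *Runx1* spans 224684 bases of chromosome 16 (92601466 to 92826149, minus strand), *Runx2* 318811 bases of chromosome 17 (44495987 to 44814797, minus strand) and *Runx3* 57339 bases of chromosome 4 (135120652 to 135177990, plus strand). Exons made up 5.35%, 2.77% and 8.73% of these spans. On the opposite strand, *Runx1* is overlapped by *Gm26626*, *Runx2* by *Runx2os1*, *Runx2os2*, *Runx2os3* and the start of *Supt3*, and *Runx3* by *Gm16224*. The libraries were made with a stranded kit, but use of strand in counting is not given in the sources used here, and reads of the Runx genes and of these partners may therefore not have been told apart. None of these 6 partners was in either table.

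A *Clic* gene, which encodes a chloride intracellular channel protein, was the nearest protein-coding gene outside the gene body on 1 side of each paralog. These were *Clic6* at 60223 bases from *Runx1*, *Clic5* at 215815 bases from *Runx2* and *Clic4* at 35979 bases from *Runx3*. Only *Clic4*, with an average log2 CPM of 5.79, was in the table of lower genes. On the other side, *Setd4* near *Runx1* was in neither table, whereas *Cdc5l* near *Runx2* (6.55) and *Syf2* near *Runx3* (6.22), which encode spliceosome proteins, were in that of lower genes.

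Windows with a TGTGGT were not more frequent among the lower genes. Of the 2906 symbols in the table of lower genes, 2329 had a promoter window, and 338 of these (14.5%) held a TGTGGT in any of their windows, against 5113 of 27025 genes (18.9%) of the promoter table, which also holds non-coding genes. Among protein-coding genes only, a comparison added after seeing the data, the shares were 14.6% (334 of 2288) and 17.0% (2801 of 16522). The median GC content of the windows was then 62.5% for the lower genes and 57.0% for all protein-coding genes, and the part of base composition in this difference was not tested. *Il7r* and *Zbtb7b* among the Runx-regulated genes, and *Ncor1* among the cofactors, were listed genes with such a match. The windows of the other listed genes of these lists that had one held none. These were the Runx-regulated *Csf2*, *Bcl11b* and *Tcf7* and the cofactors *Cbfb*, *Tle3*, *Sin3a*, *Ep300*, *Crebbp* and *Smad3*. Absence of a match says only that these letters are not in the window.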

How the data were processed

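RNA-seq libraries were made by the authors from sorted ILC2s with a stranded kit. Per the paper's methods, reads were checked with FASTP, aligned with STAR to GRCm39 (the submitters' notes list mm10), counted with featureCounts on Ensembl release 104 and compared with edgeR by the authors. Tool versions are not given in the sources used here. Each deposited table gives 1 average log2 CPM per gene, which the authors took over the libraries of their fit; the names of the tables carry the unit TPM, so a scaling by length before that fit is not excluded. The fold change, likelihood ratio, p-value and FDR columns are the authors' comparison and were not used. Columns of per-sample values not used numbered 0. No library is given singly, so depth, SD and intervals are unknown.

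From the tables, CPM was taken as 2 to the power of the average log2 CPM and divided by exonic, coding or longest transcript length (GENCODE M21, GRCm38), which 2905 of 2906 lower and 531 of 533 higher genes had. Promoter windows (RefSeq, GRCm38.p6) were matched by symbol and scanned for TGTGGT on both strands, with overlaps counted. They were found for 2329 lower genes (80.1%). For the higher genes (75.4%) and the listed cofactors (63.6%) and Runx-regulated genes (62.5%) fewer than 80% had one, so a share of windows with the motif was void. The scan was tested on simulated data. Protein identities were not computed here. Some genes of the lists are not reported here and are left out of their counts. Members and lists were chosen with earlier results of these data known. Named genes were the members, the genes of the lists, and the nearest genes in level or position, the last chosen after the annotation was seen. Shares, ranks and lengths were varied as described in the closing section. Python 3.11.15, numpy 2.4.6, scipy 1.17.1, pandas 2.3.3 and matplotlib 3.10.9 were used. The ATAC-seq libraries were not analysed here.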

Additional observations from a re-analysis of the deposited data

How the results depend on the processing

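The average levels of the Runx genes depended on the length used. They were 12.1, 9.69 and 21.2 CPM for *Runx1*, *Runx2* and *Runx3* per kb of all exons. Per kb of coding length they were 105, 47.9 and 83.4 CPM, per kb of the longest protein-coding transcript (an alternative chosen after seeing the data) 24.9, 13.2 and 27.3 CPM, and without length scaling 146, 85.6 and 106 CPM. The percentiles within the table of lower genes, 77.1, 51.0 and 62.7, were 80.0, 56.8 and 67.3 over both tables and 32.6, 15.5 and 67.6 per kb of exons, and did not change with protein-coding genes only. With an average log2 CPM over 6, 11 cofactors and 6 Runx-regulated genes remained listed, beside 8.83% of annotated genes. With the 16539 annotated protein-coding gene entries whose symbol has a promoter window as background, 13.8% were lower.

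The share of genes with a motif was 46.3% among lower and 49.1% among all genes with TGNGGT, 4.29% and 6.09% with TGTGGTT, 12.5% and 15.9% in the bases before the start, and, both chosen after seeing the data, 11.6% and 17.1% in genes with 1 window and 14.6% and 17.0% in protein-coding genes. The lower genes had the smaller share in each of these settings.

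No paired analysis was possible because library-level columns are not among the deposited ones, and for the same reason no library was left out in turn. The alternatives for protein identity were not run. Levels below an average log2 CPM of 5 are not shown by these tables.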

Other observations

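Families of related factors and neighbours were looked up in the same way, with lists written after the Runx listing was known, where 13.2% of annotated protein-coding genes were in the table of lower genes and 2.31% in that of higher genes. Of the 5 *Ikzf* genes, 3 were in the table of lower genes (*Ikzf1*, *Ikzf2* and *Ikzf3*), and of the 5 *Nfat* genes 4 were (*Nfatc1*, *Nfatc2*, *Nfatc3* and *Nfat5*). Of the 6 *Gata* genes, only *Gata3* was listed. Of the 4 *Tcf* and *Lef* genes, *Tcf7* was in the table of lower genes (average log2 CPM 5.68), while *Tcf7l2* was in that of higher genes (5.09). *Runx1t1*, *Cbfa2t2* and *Cbfa2t3*, the corepressor genes of the ETO family known from fusions with RUNX1, were in neither table, and neither were *Rcan1*, *Rcan2* and *Rcan3*, which lie beyond the *Clic* genes near the Runx paralogs. Whether the Runx family stands apart from these families was not tested.

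The 7 promoter windows with a pair of TGTGGT matches at a spacing of 8 bases belonged to *Runx1*, *Runx2*, *Runx3*, *Gm16225*, *Gm12236*, *Gm15462* and *Olfr24*. The 3 Runx genes were chosen as rows of the deposited tables, and the other 4 genes were not in them, so nothing follows from this difference.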
